A study of Homo sapiens with 6 samples.

Results

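Interferon-stimulated genes (ISGs) are the genes that cells switch on when an interferon binds its receptor. The 42 ISGs described here were chosen by gene symbol, and all 42 had an entry among the 34811 genes of the RNA-seq count table. The rule used no measured values, but the choice was made with earlier results of these data known. The libraries came from OVCAR-3, an established human ovarian carcinoma cell line that expresses COX-1, the prostaglandin-forming enzyme encoded by PTGS1. OV3/SCR cells stably carried a scrambled shRNA on the pRS HuSH-29 plasmid, had wild-type COX-1 status and gave 3 libraries. OV3/COX1KD cells carried an shRNA against COX-1 on the same plasmid background and also gave 3 libraries. All cells had been selected with puromycin and grown in RPMI-1640 medium with serum, no interferon or other agent is named in the labels, and each condition was represented by 1 clone (#1 for OV3/SCR and #2 for OV3/COX1KD). The 3 libraries of a condition were separately harvested populations of that clone, so the p-values measure the spread between populations of a clone and not between clones, and a difference between the shRNAs cannot be told apart from a difference between the clones. In these bulk samples a smaller number of expressing cells and less RNA per cell cannot be told apart either.

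Type I and type III interferons act through receptor-bound JAK1 and TYK2, which phosphorylate STAT2 among other targets. Phosphorylated STAT2 enters ISGF3 together with IRF9, and this complex binds the interferon-stimulated response element (ISRE) in promoters. Type II interferon acts through JAK1 and JAK2 and leads to activation of promoters that hold the gamma-activated sequence (GAS). Foreign RNA or DNA in a cell leads to interferon production through sensors such as RIG-I and MDA5 and the factors IRF3 and IRF7. Many ISG products block viral entry, translation or RNA, others feed back on the pathway, and epithelial tumor cells can express part of the set without added interferon.

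Many, but not all, of these genes carried a match to the ISRE core in the promoter. Promoter windows of 300 bases (250 before and 50 after the transcription start, RefSeq, GRCh38.p14) were matched for 34 of the 42 genes, and IFIT2, IFITM2, IRF7, MX2, OAS2, OASL, TRIM22 and USP18 had no matched entry. The ISRE core GAAANNGAA, searched on both strands, was found in 22 of the 34 windows (64.7%), against 8.29% of all 27305 promoter windows and 6.28% of the 11759 windows of tested genes. The GAS pattern TTCNNNGAA, which reads the same on both strands, was found in 9 of the 34 windows (26.5%), against 7.88% of all windows and 6.18% of those of tested genes. Of the 10 GAS matches, 3 overlapped an ISRE match (in BST2, IFI27 and IFITM1). A match describes the letters and is not evidence of binding.

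Stretches of promoters are printed 5′ to 3′ on the strand of the gene, with the ISRE core matches in capitals (shown as the reverse complement where the match lies on the opposite strand). IFI44L, IFIT1, IFITM3 and BST2 were higher in OV3/COX1KD cells than in OV3/SCR cells, as described in the paragraphs on those genes, and are shown first to set them against genes that were lower. The stretches lie at chr1:78620264-78620403 on the plus strand, chr10:89392488-89392549 on the plus strand, chr11:320867-320932 on the minus strand and chr19:17405726-17405780 on the minus strand (GRCh38.p14).
IFI44L: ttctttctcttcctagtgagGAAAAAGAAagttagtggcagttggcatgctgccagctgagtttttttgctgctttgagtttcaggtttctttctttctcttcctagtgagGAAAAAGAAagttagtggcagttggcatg
IFIT1: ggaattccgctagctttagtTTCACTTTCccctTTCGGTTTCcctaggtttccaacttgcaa
IFITM3: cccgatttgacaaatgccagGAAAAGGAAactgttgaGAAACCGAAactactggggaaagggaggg
BST2: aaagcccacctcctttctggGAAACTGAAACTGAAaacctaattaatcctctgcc

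The IFI44L stretch held a run of 49 bases that recurred 91 bases downstream with 0 mismatches, so that its 2 ISRE cores lay in identical surroundings. The following genes were lower in OV3/COX1KD cells. IFI44 is the genomic neighbor of IFI44L, ISG15 holds 3 overlapping cores, and OAS3, IFI27 and SAMD9 complete the comparison. Their stretches lie at chr1:78649752-78649788 on the plus strand, chr1:1013364-1013424 on the plus strand, chr12:112938311-112938473 on the plus strand, chr14:94110609-94110669 on the plus strand and chr7:93118087-93118135 on the minus strand (GRCh38.p14).
IFI44: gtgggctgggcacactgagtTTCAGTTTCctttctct
ISG15: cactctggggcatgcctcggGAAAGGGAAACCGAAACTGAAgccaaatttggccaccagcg
OAS3: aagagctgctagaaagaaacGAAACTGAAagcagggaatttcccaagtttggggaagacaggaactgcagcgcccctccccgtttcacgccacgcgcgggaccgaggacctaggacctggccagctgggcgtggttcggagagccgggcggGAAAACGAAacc
IFI27: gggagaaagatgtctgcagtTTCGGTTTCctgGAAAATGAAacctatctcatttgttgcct
SAMD9: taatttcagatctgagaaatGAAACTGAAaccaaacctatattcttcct

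The ISRE core was present in promoters of genes that moved in both directions. It was found in 4 of the 6 windows of genes higher in OV3/COX1KD cells, in 8 of the 11 windows of genes that were lower and in 9 of the 15 windows of tested genes without a call. It was also found in 1 of the 2 windows of genes with too few counts to test. The windows of UBE2L6 and HERC6, which were higher, and of IRF1, IRF9 and PARP9, which were lower, held no match to these letters, and those of IRF1 and IRF9 each held a GAS match.

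Library totals lay between 25291505 and 27391538 counts, and a count of 3 corresponded to 0.112 to 0.120 CPM, the count scaled to library size with TMM factors. The targeted gene PTGS1 had 713, 658 and 641 counts in OV3/SCR replicates 1 to 3 and 456, 486 and 501 counts in the OV3/COX1KD replicates, a log2 fold change of -0.45 (SE 0.057, FDR 1.3e-06), so PTGS1 was lower in every library labelled OV3/COX1KD. OV3/COX1KD replicate 2 stood apart from its group: the chi-square per degree of freedom between libraries, over genes, was 4.96 and 6.47 against OV3/COX1KD replicates 1 and 3, which differed from each other by 1.92. The OV3/SCR libraries differed from each other by 1.83 to 3.21, and libraries of different conditions by 46.8 to 61.9. Without that library 9 ISGs were higher and 12 lower, against 8 and 11 with it. The share of all tested genes called without it is not given here, so these counts have no background beside them. Of the 11 epithelial and ovarian serous markers, 8 rose and 2 fell, where 25.8% of all tested genes rose and 22.1% fell. ESR1, with 0 to 2 counts a library, was not tested. The tumor antigen gene MUC16 (CA-125) rose with a log2 fold change of 1.36 (edgeR FDR 4.4e-16), and the lineage factor gene PAX8 fell from 19370 to 20262 counts in OV3/SCR to 11233 to 11791 in OV3/COX1KD. The summed level of the 11 markers was 5759 to 5826 CPM in OV3/SCR and 7493 to 7688 CPM in OV3/COX1KD. KRT8 alone went from 1500 to 2357 CPM on average. The 9 leukocyte markers summed to 4.71 to 6.06 CPM in OV3/SCR and 1.57 to 2.39 CPM in OV3/COX1KD. The only call among them was NCAM1, which is also expressed outside the immune system and fell from 3.27 to 0.494 CPM on average (log2 fold change -2.71, edgeR FDR 2.6e-09). PTPRC, the pan-leukocyte marker CD45, had at most 8 counts in any library. The part of these differences in the ISG results was not tested. The 8 fibroblast and endothelial markers summed to 12.4 to 13.2 CPM in OV3/SCR and 8.66 to 9.36 CPM in OV3/COX1KD, and 1 of them was lower.

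The ISGs moved in both directions in OV3/COX1KD cells. Of the 42 genes, 38 had enough counts to test, and 8 rose and 11 fell at an FDR (Benjamini-Hochberg adjusted p) below 0.01 in edgeR's quasi-likelihood test on 17309 genes. Over all tested genes 25.8% rose and 22.1% fell, so the ISG counts lay near this background. A log2 fold change beyond 0.5 was the lower limit for coloring genes in the study's figures. With it added, 7 of the 38 tested ISGs rose and 8 fell, against 9.87% and 10.0% of all tested genes. At this limit both ISG shares were above those of all tested genes, and this excess was not tested. With a fold change above 2.5, the limit the study set for changed genes, no ISG rose (0) and no ISG fell (0), against 1.58% and 2.34% of all tested genes. Both counts were also 0 by DESeq2 and at an unadjusted p under 0.05. The log2 fold changes ran from -1.04 to 1.19 with a median of -0.012, against -0.0087 over all tested genes. Their median absolute size was 0.39, against 0.28 over all tested genes. The CPM values of the conditions did not overlap for 26 of the 38 tested ISGs, and for 63.2% of all tested genes. The summed level of the 42 genes was 896, 913 and 911 CPM in OV3/SCR replicates 1 to 3 and 962, 955 and 972 CPM in the OV3/COX1KD replicates. This sum is weighted to the most abundant genes, and UBE2L6 alone went from 77.6 to 137 CPM on average. The median log2 CPM of the tested ISGs was 2.57 to 2.64 in the OV3/SCR libraries and 2.48 to 2.57 in the OV3/COX1KD libraries.

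**Figure D1:**
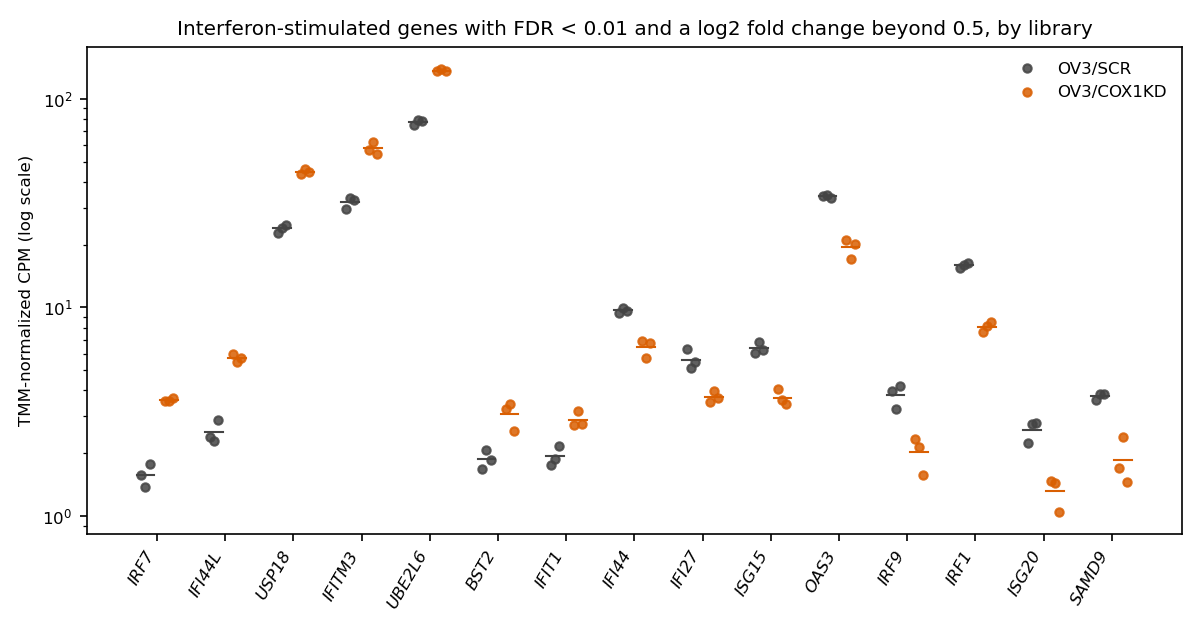
TMM-normalized CPM (log axis) of the 15 ISGs called at an FDR below 0.01 whose log2 fold change was beyond 0.5, with 1 point per library (replicates 1 to 3 from left to right) and a bar at the mean of each condition. The 7 genes at the left lie higher in all 3 OV3/COX1KD libraries than in any OV3/SCR library, and the 8 genes at the right lie lower in all 3.

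Transcription factors of the pathway diverged. IRF7 (chr11:612553-615983, minus strand, GRCh37), the factor that amplifies type I interferon production, had 42, 36 and 46 counts in OV3/SCR replicates 1 to 3 and 90, 89 and 98 counts in the OV3/COX1KD replicates. This is 1.58 ± 0.199 CPM against 3.60 ± 0.067 CPM (SD, n = 3), a 2.28-fold higher level (log2 fold change 1.19, SE 0.16, edgeR FDR 2.1e-06). Every OV3/COX1KD library lay above every OV3/SCR library. IRF9 (chr14:24630443-24637252, plus strand), the DNA-binding subunit of ISGF3, had 106, 85 and 109 counts in OV3/SCR and 59, 54 and 42 counts in OV3/COX1KD (log2 fold change -0.92, SE 0.17, edgeR FDR 9.0e-05). IRF1 (chr5:131776132-131844411, minus strand), an activator of type II interferon responses, had 411, 416 and 424 counts in OV3/SCR and 192, 204 and 226 counts in OV3/COX1KD (log2 fold change -0.98, SE 0.075, edgeR FDR 9.8e-10). IRF1 was thus 1.97-fold lower and IRF9 1.89-fold lower, with no overlap of the conditions for either gene. STAT2, the partner of IRF9 in ISGF3, had 2187, 2256 and 2223 counts in OV3/SCR and 2068, 2189 and 2200 counts in OV3/COX1KD. Its log2 fold change was -0.014 with a 95% interval of -0.093 to 0.064.

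Annotated exons of other genes overlapped both lowered factors. C5orf56 lies on the strand opposite to IRF1 and shares 22.9% of its exon length, and had 63, 60 and 57 counts in OV3/SCR and 35, 32 and 32 in OV3/COX1KD (log2 fold change -0.83, edgeR FDR 5.4e-04). A second annotated gene lies on the strand of IRF9 and shares 23.9% of its exon length (log2 fold change -0.60, edgeR FDR 0.0196). Whether strand was used in counting is not given in the sources used here, and reads from such overlaps cannot be assigned with certainty.

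The ISG15 system, which attaches the ubiquitin-like protein ISG15 to other proteins and removes it, held calls in both directions. Of its 5 genes, UBE2L6, USP18 and HERC6 rose, ISG15 fell and HERC5 did not pass the test. UBE2L6 (chr11:57319129-57335757, minus strand, GRCh37), the E2 enzyme that conjugates ISG15, had 2007, 2074 and 2026 counts in OV3/SCR and 3406, 3481 and 3622 counts in OV3/COX1KD. Its level went from 77.6 ± 2.21 to 137 ± 1.91 CPM (SD, n = 3), and was 1.76-fold higher (log2 fold change 0.81, SE 0.034, edgeR FDR 1.2e-13). USP18 (chr22:18632885-18660164, plus strand), the protease that removes ISG15 and also restrains the type I receptor, had 605, 629 and 646 counts in OV3/SCR and 1099, 1154 and 1189 counts in OV3/COX1KD. It rose from 23.9 ± 1.16 to 44.7 ± 1.20 CPM (log2 fold change 0.90, SE 0.050, edgeR FDR 7.8e-12). USP18 shares near-identical sequence with USP41, which had at most 10 counts in any library, so reads that fit both are uncertain. ISG15 itself (chr1:936518-949920, plus strand) had 161, 179 and 161 counts in OV3/SCR and 102, 90 and 92 counts in OV3/COX1KD. It fell from 6.37 ± 0.434 to 3.69 ± 0.314 CPM (log2 fold change -0.79, SE 0.11, edgeR FDR 7.5e-06). The E3-family gene HERC6 rose with a log2 fold change of 0.43. HERC5, the main human ISG15 ligase, had 127, 101 and 108 counts in OV3/SCR and 96, 129 and 107 in OV3/COX1KD, with overlapping conditions.

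The IFIT genes, whose products bind viral RNA lacking host cap methylation or interact with one another, are 4 neighbors on chromosome 10, and 1 of them passed the test. IFIT1 (chr10:91152303-91166244, plus strand, GRCh37) had 47, 49 and 56 counts in OV3/SCR and 69, 80 and 74 counts in OV3/COX1KD, which did not overlap (log2 fold change 0.58, SE 0.16, edgeR FDR 0.0042). This call depended on the fit. The FDR was 0.0192 by DESeq2, 0.0110 with scaling by total counts, 0.0217 without OV3/SCR replicate 1, 0.0168 without OV3/SCR replicate 2 and 0.0123 without OV3/COX1KD replicate 2. IFIT2, IFIT3 and IFIT5 had log2 fold changes between -0.36 and 0.24 and no call. Part of the IFIT2 exon length (12.1%) is shared with RP11-149I23.3 on the same strand.

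In the OAS family, OAS3 fell. The enzymes OAS1, OAS2 and OAS3 sense double-stranded RNA and make the signal that activates RNase L. OAS3 (chr12:113375856-113414265, plus strand, GRCh37) had 916, 905 and 870 counts in OV3/SCR and 528, 429 and 540 counts in OV3/COX1KD. Its level was 34.2 ± 0.546 CPM against 19.4 ± 2.05 CPM (SD, n = 3), 1.76-fold lower (log2 fold change -0.81, SE 0.063, edgeR FDR 1.1e-09). OAS1, which starts the same cluster, had 739, 729 and 692 counts in OV3/SCR and 779, 721 and 760 in OV3/COX1KD. Its log2 fold change was 0.097 with a 95% interval of -0.011 to 0.21, and it had no call. OAS2 (at most 3 counts) and OASL (5, 6 and 2 counts in OV3/SCR, and 2, 7 and 7 in OV3/COX1KD) had too few counts to test. At this depth a change in either was not detectable.

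Among the RNA and DNA sensors, IFIH1, which encodes the long double-stranded RNA sensor MDA5, fell with a log2 fold change of -0.43. DDX58, which encodes RIG-I, DDX60 and EIF2AK2, which encodes the translation-blocking kinase PKR, had log2 fold changes between 0.052 and 0.14 and no call. IFI16, a DNA sensor, had 3, 5 and 2 counts in OV3/SCR and 1, 3 and 0 in OV3/COX1KD and was not tested. MDA5 and RIG-I transcripts therefore had estimates of opposite sign, and the difference between them was not tested.

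Restriction factors at membranes all had positive estimates, and 2 of the 4 passed the test. IFITM3 (chr11:319676-329475, minus strand, GRCh37), which blocks fusion of viruses in endosomes, had 793, 872 and 850 counts in OV3/SCR and 1429, 1559 and 1455 counts in OV3/COX1KD. It rose from 32.0 ± 2.00 to 57.8 ± 3.91 CPM (SD, n = 3) and was 1.81-fold higher (log2 fold change 0.85, SE 0.055, edgeR FDR 6.9e-11). BST2 (chr19:17513748-17516439, minus strand), which encodes tetherin and holds budding virions at the cell surface, had 45, 54 and 48 counts in OV3/SCR and 82, 86 and 68 counts in OV3/COX1KD. It was 1.64-fold higher (log2 fold change 0.71, SE 0.17, edgeR FDR 0.0012) without overlap of the conditions. IFITM1 and IFITM2 had log2 fold changes of 0.90 and 0.24 and FDRs of 0.050 and 0.0117, above the threshold. IFITM1, IFITM2 and IFITM3 are close paralogs, so the division of reads between them is uncertain.

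Enzymes acting on RNA and nucleotides included ISG20, which fell. ISG20 (chr15:89178901-89199714, plus strand, GRCh37), an RNA exonuclease, had 60, 72 and 72 counts in OV3/SCR and 37, 36 and 28 counts in OV3/COX1KD (log2 fold change -0.98, SE 0.19, edgeR FDR 1.7e-04). Every OV3/COX1KD library lay below every OV3/SCR library. CMPK2, a mitochondrial nucleotide kinase, had 13 to 26 counts over the 6 libraries and no call. Its overlapping neighbor RSAD2, which encodes viperin, had 13, 3 and 7 counts in OV3/SCR and 2, 7 and 6 in OV3/COX1KD and was not tested.

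The dynamin-like GTPases MX1 and MX2, which trap viral ribonucleoproteins or capsids, had log2 fold changes of -0.062 and -0.066 and overlapping conditions. The interval for MX1 was -0.27 to 0.15, and that for MX2, with 7 to 20 counts a library, was -0.83 to 0.69. GBP1, a guanylate-binding GTPase typical of the type II response, fell with a log2 fold change of -0.35. Of the macrodomain PARPs, PARP9 fell with a log2 fold change of -0.25 and PARP14 had an estimate of -0.010 with an interval of -0.089 to 0.068.

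The IFI genes and the remaining effectors held the sharpest contrast between adjacent genes. IFI44L (chr1:79085587-79111830, plus strand, GRCh37), a cytoplasmic protein gene widely used as an interferon signature marker, had 64, 60 and 75 counts in OV3/SCR and 151, 137 and 153 counts in OV3/COX1KD. It rose from 2.53 ± 0.321 to 5.73 ± 0.266 CPM (SD, n = 3) and was 2.26-fold higher (log2 fold change 1.18, SE 0.13, edgeR FDR 1.7e-07). Its paralog IFI44 (chr1:79115481-79129763, plus strand), 3650 bases away, had 252, 259 and 250 counts in OV3/SCR and 174, 144 and 181 counts in OV3/COX1KD. It fell from 9.68 ± 0.243 to 6.48 ± 0.641 CPM (log2 fold change -0.58, SE 0.092, edgeR FDR 2.2e-05). Neither pair of conditions overlapped, so the neighbors moved in opposite directions in all 3 OV3/COX1KD libraries.

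IFI27 (chr14:94571182-94583032, plus strand, GRCh37), a mitochondrial and nuclear-envelope protein gene, had 168, 134 and 141 counts in OV3/SCR and 89, 100 and 98 counts in OV3/COX1KD (log2 fold change -0.59, SE 0.12, edgeR FDR 3.1e-04). SAMD9 (chr7:92728826-92747336, minus strand), an antiviral and growth-restraining factor, had 96, 100 and 100 counts in OV3/SCR and 43, 60 and 39 counts in OV3/COX1KD. It was 2.04-fold lower (log2 fold change -1.03, SE 0.17, edgeR FDR 3.0e-05), and no conditions overlapped for either gene. XAF1, a pro-apoptotic XIAP-binding factor, had the lowest estimate of the 38, with 11, 13 and 10 counts in OV3/SCR and 4, 5 and 7 in OV3/COX1KD. Its log2 fold change was -1.04 with an interval of -1.88 to -0.20, and its FDR of 0.0329 missed the threshold. It was singled out after its values were seen. IFI6, IFI35 and TRIM22 had log2 fold changes between -0.23 and 0.18 and no call.

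**Figure D2:**
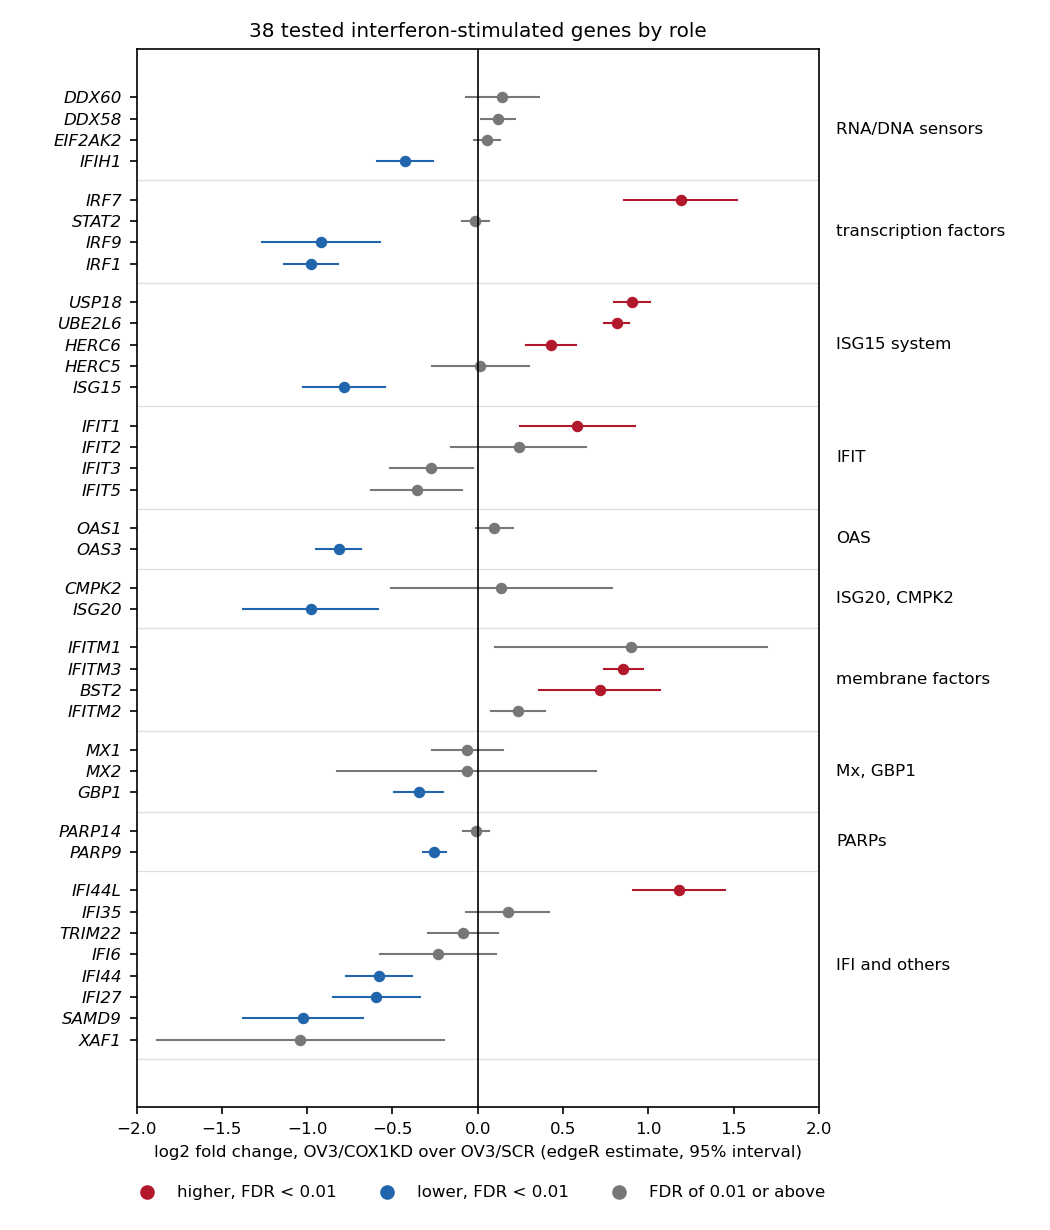
edgeR log2 fold change (OV3/COX1KD over OV3/SCR) of the 38 tested ISGs with 95% intervals, grouped by role, in red for higher and blue for lower at an FDR under 0.01. Calls in both directions stand within the transcription factors, the ISG15 system and the IFI genes, and IRF7 (1.19) and XAF1 (-1.04, no call) have the outermost estimates.

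Levels per length were compared as CPM per kilobase of merged exons. UBE2L6 was highest in both conditions (37.7 in OV3/SCR and 66.2 in OV3/COX1KD). In OV3/SCR cells PARP9 (17.6) and PARP14 (15.9) followed, and IFITM3 (11.2) was next. In OV3/COX1KD cells IFITM3 (20.3) stood above PARP14 (15.8), PARP9 (14.7) and USP18 (10.9). The tested ISGs had a median level of 1.53 CPM per kilobase in OV3/SCR and 1.23 in OV3/COX1KD, against 3.22 and 3.23 over all tested genes. Of the 42, 23 genes were above 1 CPM per kilobase in OV3/SCR and 21 in OV3/COX1KD, and 17 were below 5 CPM in both conditions.

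The 42 genes lie in 29 loci, 8 of which hold more than 1 ISG. Tested genes within 1 Mb that are not ISGs of the set had median log2 fold changes between -0.53 and 0.29 by locus. For 8 of the 19 ISGs with a call, the median of the neighbors had the same sign as the ISG. Around IFI44L and IFI44, 5 of 8 neighbors fell, 0 rose, and the median log2 fold change was -0.36. Around the IFIT genes the median of 8 neighbors was -0.073, and around the IFITM genes and IRF7 the median of 52 neighbors was -0.052. OAS1 and OAS3 are 4831 bases apart, and HERC6 and HERC5 are 14020 bases apart. In each of these pairs 1 gene passed the test and the other did not.

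**Figure D3:**
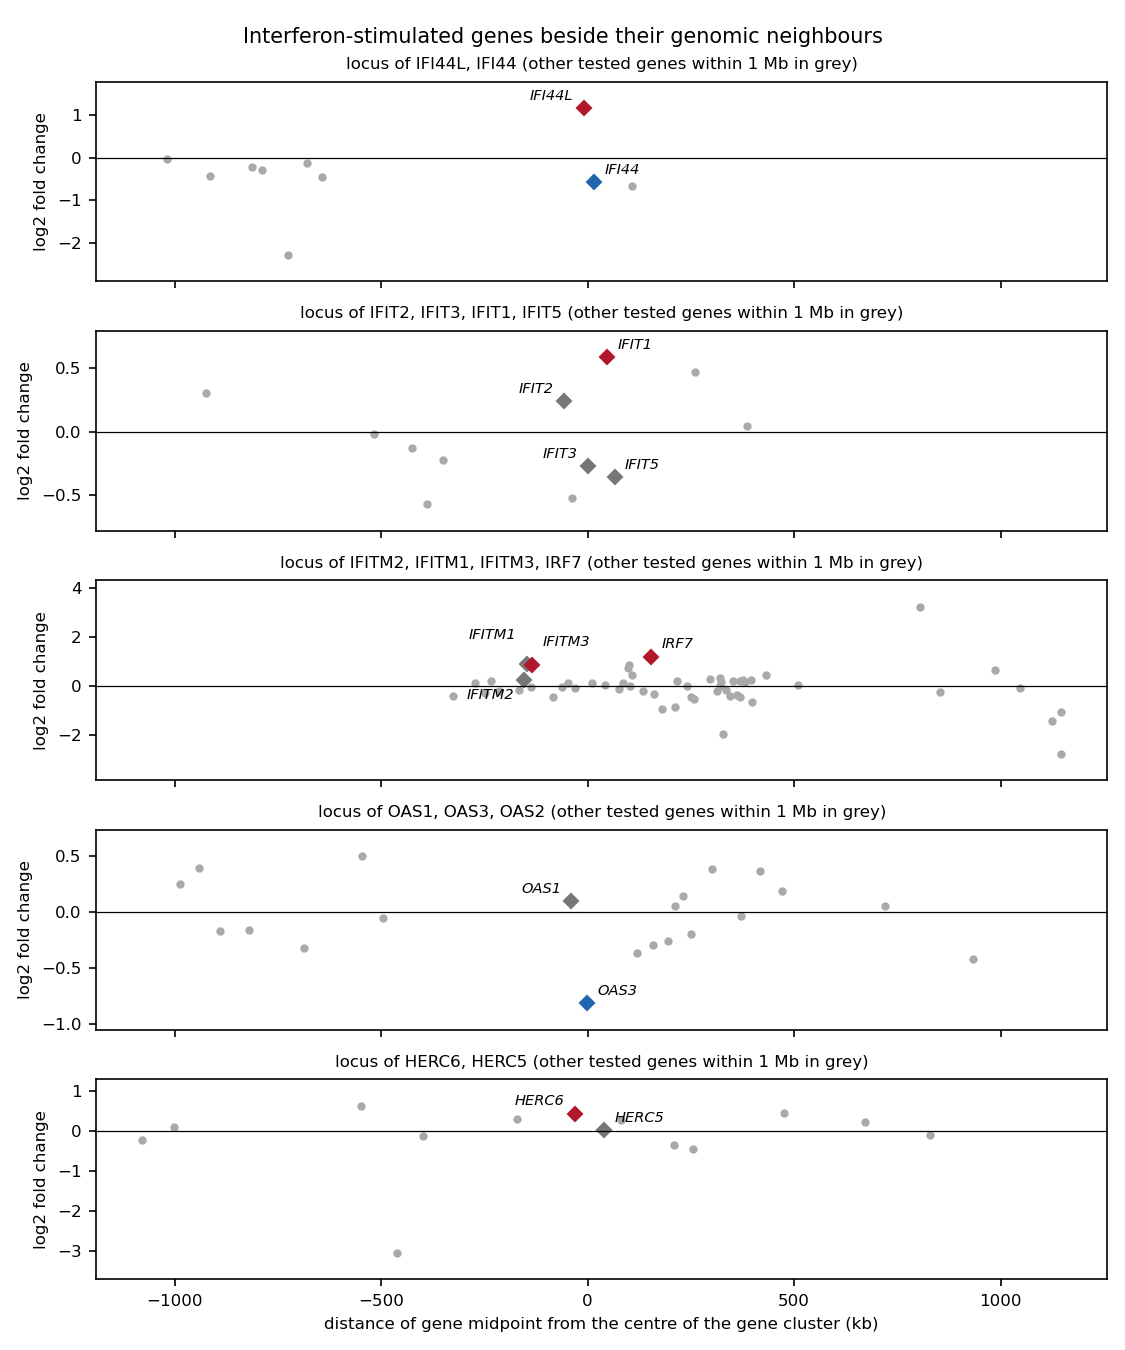
log2 fold change (OV3/COX1KD over OV3/SCR) against distance in kb from the centre of 5 ISG clusters, with ISGs as diamonds (red higher, blue lower, dark grey no call) and other tested genes as light grey points. IFI44L (1.18) lies above zero among neighbors with a median of -0.36, and OAS3 (-0.81) lies below OAS1 (0.097).

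Upstream of the ISGs, ligand counts were low. Of 24 ligand symbols, synonyms included, 6 had an entry and 1 was tested. This was IFNE, the epithelial interferon epsilon, with 150, 179 and 171 counts in OV3/SCR and 80, 157 and 80 in OV3/COX1KD (log2 fold change -0.62, SE 0.19, edgeR FDR 0.0078). OV3/COX1KD replicate 2 lay close to the OV3/SCR libraries, and the call was lost by DESeq2 (FDR 0.124). It was also lost without OV3/SCR replicate 1 (0.0111), 2 (0.0527) or 3 (0.0375) and without OV3/COX1KD replicate 1 (0.0439) or 3 (0.0578), while without OV3/COX1KD replicate 2 the log2 fold change was -1.04. The other ligands with an entry, IFNB1, IFNK, IL28A, IL28B and IL29, had at most 4 counts in any library.

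Receptor genes moved by small amounts. The type I receptor subunits IFNAR1 and IFNAR2 had log2 fold changes of 0.10 and 0.064 (edgeR FDR 0.0144 and 0.42) and no call. Of the type II receptor subunits, IFNGR1 fell (-0.30, edgeR FDR 3.1e-06) and IFNGR2 rose (0.46, edgeR FDR 4.3e-07). IL10RB, the shared type III subunit, rose (0.23, edgeR FDR 5.8e-05), and IL28RA had an estimate of 0.56 and no call (edgeR FDR 0.0164). The 3 receptor kinases JAK1, JAK2 and TYK2 all fell, with log2 fold changes of -0.55, -0.32 and -0.65.

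Of the 8 feedback inhibitors 2 rose and 1 fell, where 25.8% of all tested genes rose and 22.1% fell. SOCS3, which blocks JAK kinases at cytokine receptors, rose with a log2 fold change of 0.88. SOCS1 had an estimate of -0.20 and no call (edgeR FDR 0.30). In the list of sensing adaptors, kinases and IRFs above the interferon genes, 2 of 15 tested genes were higher and 9 lower, where 25.8% and 22.1% of all tested genes were called. DHX58, which encodes the RIG-I-like receptor LGP2, had 25, 31 and 37 counts in OV3/SCR and 2, 7 and 3 in OV3/COX1KD (log2 fold change -2.89, SE 0.39, edgeR FDR 2.7e-06). IRF8 fell by 1.67 and IRF5 fell by 1.15 on the log2 scale. In 46 further ISGs with an entry, 39 were tested, 10 rose and 10 fell, close to those shares over all tested genes. GBP2 (1.38, edgeR FDR 2.4e-14) and the cytidine deaminase gene APOBEC3F (-2.73, edgeR FDR 7.7e-08) were those with a log2 fold change beyond 1. JAK1, JAK2, TYK2, SOCS1, SOCS3 and IFNE were named after their values were seen.

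**Figure D4:**
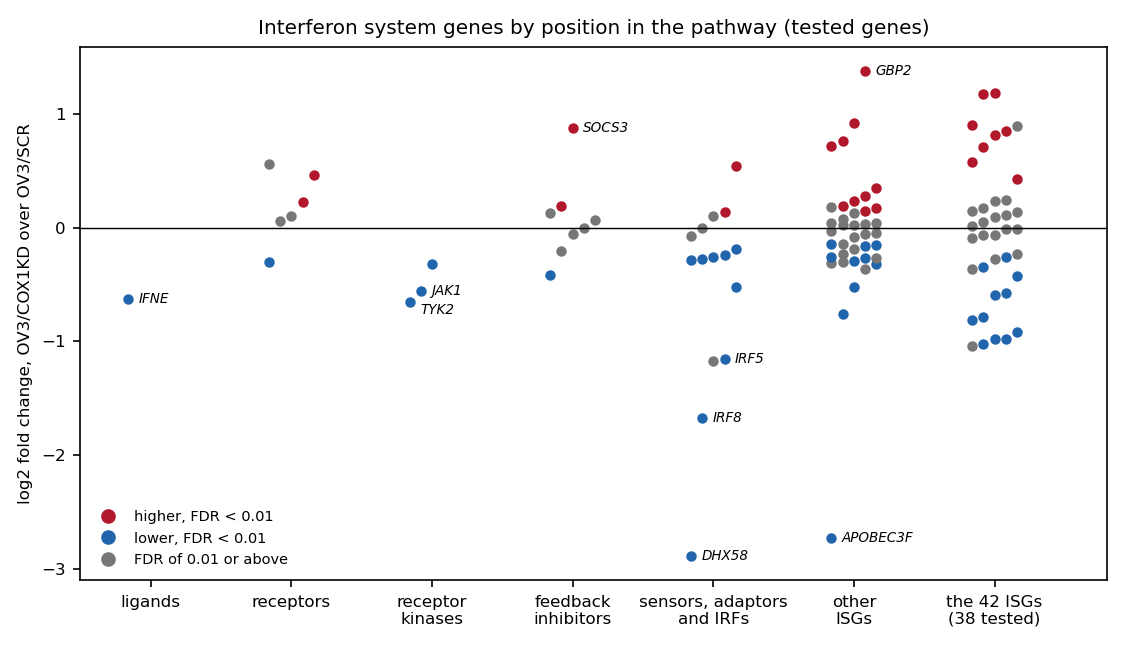
log2 fold change (OV3/COX1KD over OV3/SCR) of tested interferon system genes by position in the pathway, in red for higher and blue for lower at an FDR under 0.01 and in grey for no call, with 1 point per gene. The 3 receptor kinases lie below zero, DHX58 (-2.89) and APOBEC3F (-2.73) are lowest, and the ISGs lie on both sides.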

How the data were processed

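RNA-seq was measured in 3 OV3/SCR and 3 OV3/COX1KD libraries (TruSeq), grouped and numbered by the labels. The clone numbers come from the study. Reads were mapped by the authors to hg19 (TopHat2 2.0), gene totals were taken with HTSeq, and unnormalized counts were deposited. The gene annotation and the use of strand are not given in the sources used here. Library totals were 25291505 to 27391538 counts and limit what can be seen in genes of few counts. No column was left unused.

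The comparison used edgeR 4.0.16 (R 4.3.3, limma 3.58.1). After TMM scaling, filterByExpr retained 17309 of 34811 genes, a model with condition alone was fitted (glmQLFit, glmQLFTest), and p-values were adjusted across the retained genes by Benjamini-Hochberg. CPM are TMM-scaled. Standard errors were the log2 fold change divided by the square root of F, and 95% intervals used the moderated degrees of freedom. The common biological coefficient of variation was 3.21%. The procedure was tested on simulated data. ISGs called at an FDR below 0.01 whose log2 fold change exceeded 0.5 in size were given with counts in every library, as were untested ISGs over 3 counts. Other ISGs were given by counts, ranges or intervals. Of the other lists, the receptors and genes called with a log2 fold change beyond 1 were named by rule. Further genes outside this rule, the markers PAX8, ESR1 and PTPRC among them, were also named, and the rest were counted. A further listed gene is not reported here. The ISGs and gene lists were chosen with earlier results of these data known. Gene coordinates, exon overlaps and neighbors within 1 Mb came from GENCODE 44 on GRCh37, and promoters from RefSeq on GRCh38.p14. Exon lengths merge all isoforms.

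Alternatives were other scalings, other count filters, DESeq2 1.42.0, glmTreat, the replicate number as a block, and leaving out each library. The labels speak of harvested replicate pairs without tying the numbers to a shared day. Deviations of same-numbered libraries correlated at 0.0022, 0.0444 and 0.0194, so the numbers were not taken as a pairing.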

Additional observations from a re-analysis of the deposited data

How the results depend on the processing

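Over 13 other settings, 18 of the 19 called ISGs kept their direction and call, and IFIT1 was the exception. The ISGs called higher numbered 7 to 9 and those called lower 11 to 12. The matching shares of all tested genes in these settings are not given here. Both counts past a fold change of 2.5 stayed at 0 in every setting run, glmTreat included. With the replicate block, the counts were 8 higher and 11 lower for the ISGs and 16 higher and 24 lower for the pathway lists (25 without it), and different replicate numbers had a mean correlation of -0.011, so the numbers gave no sign of pairing. The genes tested in these lists were 1 ligand, 6 receptors, 3 receptor kinases, 8 feedback inhibitors, 15 upstream genes and 39 further ISGs. In the main fit their share called higher was below the 25.8% of all tested genes. Their share called lower was above the overall 22.1%, and this was not tested. With scaling by total counts, pathway list genes called higher went from 16 to 10 and those called lower from 25 to 32. How the calls over all tested genes moved with this scaling is not given, so this move has no background beside it. The lower count was 19 by DESeq2 and 18 to 24 when 1 library was left out (18 without OV3/SCR replicate 3, 19 without OV3/COX1KD replicate 3). Scaling by total counts omits the TMM factors, which were 1.02 to 1.04 in OV3/SCR and 0.97 to 0.98 in OV3/COX1KD.

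Estimates near 0 without a call changed sign. Scaling by total counts gave -0.025 for EIF2AK2, -0.062 for HERC5 and -0.014 for IFNAR2. Upper quartile factors gave -0.0049 and a minimum of 10 counts in every library gave -0.0020 for HERC5. Without a filter STAT2 was 0.0079 and PARP14 was 0.012. Leaving out 1 library at a time gave -0.036 to 0.0028 for STAT2, -0.28 to 0.25 for MX2, -0.16 to 0.38 for CMPK2, -0.12 to 0.10 for HERC5 and -0.048 to 0.042 for PARP14. The cause of these changes was not tested. Genes with few counts set the limit: OAS2, OASL, IFI16 and RSAD2 were not testable, and intervals of MX2, CMPK2, IFITM1 and XAF1 spanned over 1 log2 unit. Without OV3/COX1KD replicate 2, which stood apart, EIF2AK2 (log2 fold change 0.097), IFIT5 (-0.48), IFITM2 (0.23) and the receptor gene IFNAR1 (0.13) passed the threshold, and IFIT1 did not. Single genes were not screened for outlying libraries in groups of 3. With 1 clone per condition the spread between clones was not measured.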

Other observations

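Further interferon-stimulated genes, named here after their values were seen, also moved both ways. The guanylate-binding GTPases differed between paralogs, since GBP2 rose (464, 426 and 450 counts in OV3/SCR and 1110, 1079 and 1219 in OV3/COX1KD) and GBP1 fell. GBP3 (log2 fold change -0.30), GBP4 (0.076) and GBP5 (0.029) had no call. Part of the GBP2 exon length (8.6%) is shared with GBP7 on the same strand. LY6E, a surface protein gene, had 4338, 4408 and 4385 counts in OV3/SCR and 7959, 7962 and 8424 in OV3/COX1KD (0.92, edgeR FDR 2.1e-15). SLFN11, which restricts replication under DNA damage, rose by 0.77 on the log2 scale. NLRC5, the activator of MHC class I genes, had 105, 126 and 109 counts in OV3/SCR and 57, 74 and 66 in OV3/COX1KD and fell by 0.75 on the log2 scale. The interferon-induced chemokines CXCL10 and CXCL11 had at most 4 counts in any library.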
